A study of Mus musculus with 7 samples.

Results

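The H3K27ac peaks of 10 genes that control whether a cell keeps dividing were examined: the cyclin-dependent kinase inhibitors Cdkn1a, Cdkn1b and Cdkn1c, the D-type cyclins Ccnd1, Ccnd2 and Ccnd3, the antiproliferative genes Gadd45g and Btg2, and the proto-oncogenes Myc and Mycn. A peak was taken for a gene when it overlapped the gene body or the 10 kb on either side (mm10, GENCODE M21), which gave 60 of the 66841 merged peaks. Their number per gene ran from 3 at Cdkn1c, Ccnd1, Gadd45g and Myc to 19 at Ccnd3. Peaks were chosen by position, but the genes were chosen with earlier results of these data known. Chromatin immunoprecipitation and sequencing (ChIP-seq) had been done for H3K27ac, a histone H3 modification found where regulatory DNA is in use. The cells were A2Lox mouse embryonic stem (ES) cells, which carried at all time points an HA-tagged murine NeuroD1 transgene behind a promoter that doxycycline switches on. Chromatin was taken before induction (0 h, no doxycycline) and after 12 h or 48 h in 500 ng/ml doxycycline. Each time point had the replicates R1 and R2. The cells had been kept in serum and LIF, first on inactivated fibroblast feeders and then passaged on gelatin until free of them. All libraries came from 1 engineered line, and a line with doxycycline but without the transgene was not analysed here. Nothing in the labels says that R1 and R2 were separate cultures, so p-values measure the spread between these samples, which may be technical.

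Cells leave the cell cycle when the D-type cyclins and their kinases no longer inactivate the retinoblastoma protein. The Cdkn1 proteins p21, p27 and p57 inhibit cyclin-dependent kinases, Btg2 and Gadd45g restrain proliferation in differentiating neural precursors, and Myc and Mycn drive the transcription of growth and cell cycle genes and are strongly active in ES cells. NeuroD1 is a basic helix-loop-helix (bHLH) factor of differentiating neurons that binds E-boxes of the letters CANNTG, for which bHLH factors of neurons are known to favour CAGATG and CAGCTG, whereas Myc with its partner Max is known for CACGTG.

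The sequences below show a promoter and a peak of each of the 2 antiproliferative genes (Gadd45g and Btg2), whose loci gained at both times, with a promoter and peaks that followed other courses (Cdkn1b, Mycn and Ccnd3). Capitals mark every CANNTG, which reads as CANNTG on both strands. Promoter sequences are the 250 bases before the transcription start in the RefSeq promoter table (GRCm38.p6), which held 6 of the 10 genes (Cdkn1a, Cdkn1b, Ccnd3, Gadd45g, Btg2 and Mycn). Peak sequences are the 200 bases with the most CAGATG and CAGCTG letters within a changed peak no wider than 2100 bases, read from the same build on the strand of the gene, so their E-box content was chosen and is not a finding. The promoters shown are those of Gadd45g (chr13:51846425-51846674, plus strand), Btg2 (chr1:134079156-134079405, minus) and Cdkn1b (chr6:134920151-134920400, plus). At Gadd45g the upstream peak is shown (chr13:51846155-51846354, plus). At Btg2 it is the upstream peak as well (chr1:134086695-134086894, minus). The others are the Mycn upstream peak (chr12:12946240-12946439, minus) and a Ccnd3 intronic peak (chr17:47574824-47575023, plus).
Gadd45g promoter: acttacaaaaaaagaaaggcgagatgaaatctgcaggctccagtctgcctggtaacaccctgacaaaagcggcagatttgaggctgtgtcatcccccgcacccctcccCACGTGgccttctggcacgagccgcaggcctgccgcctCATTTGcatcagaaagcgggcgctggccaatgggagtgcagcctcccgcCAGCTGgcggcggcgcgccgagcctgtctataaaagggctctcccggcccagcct
Gadd45g upstream peak: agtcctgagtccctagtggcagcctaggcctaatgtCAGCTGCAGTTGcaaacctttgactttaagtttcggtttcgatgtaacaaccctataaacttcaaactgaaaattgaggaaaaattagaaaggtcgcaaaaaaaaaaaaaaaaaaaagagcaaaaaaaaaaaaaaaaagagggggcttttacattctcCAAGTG
Btg2 promoter: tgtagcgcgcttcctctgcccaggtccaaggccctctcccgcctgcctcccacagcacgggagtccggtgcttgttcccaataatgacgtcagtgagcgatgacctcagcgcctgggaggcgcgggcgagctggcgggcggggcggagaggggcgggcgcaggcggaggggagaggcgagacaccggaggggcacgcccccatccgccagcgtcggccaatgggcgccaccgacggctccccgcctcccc
Btg2 upstream peak: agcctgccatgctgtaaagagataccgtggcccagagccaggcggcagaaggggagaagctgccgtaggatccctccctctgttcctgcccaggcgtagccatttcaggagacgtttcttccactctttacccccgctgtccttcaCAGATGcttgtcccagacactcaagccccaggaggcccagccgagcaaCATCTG
Cdkn1b promoter: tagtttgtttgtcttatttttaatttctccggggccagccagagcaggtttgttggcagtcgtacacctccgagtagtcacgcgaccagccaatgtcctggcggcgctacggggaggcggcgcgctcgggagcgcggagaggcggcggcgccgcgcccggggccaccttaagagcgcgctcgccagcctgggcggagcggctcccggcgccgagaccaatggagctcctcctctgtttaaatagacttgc
Mycn upstream peak: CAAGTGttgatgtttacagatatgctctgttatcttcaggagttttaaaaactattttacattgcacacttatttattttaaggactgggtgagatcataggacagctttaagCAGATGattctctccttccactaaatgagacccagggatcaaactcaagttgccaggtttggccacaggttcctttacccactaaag
Ccnd3 intronic peak: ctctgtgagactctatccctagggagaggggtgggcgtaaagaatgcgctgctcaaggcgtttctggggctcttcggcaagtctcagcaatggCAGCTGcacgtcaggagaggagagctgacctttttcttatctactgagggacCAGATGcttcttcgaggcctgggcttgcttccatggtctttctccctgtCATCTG

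The Gadd45g promoter held 3 E-boxes, among them 1 CACGTG and 1 CAGCTG, whereas the promoters of Btg2 and Cdkn1b held none in these 250 bases. Of all 32851 promoter sequences of that length in the table, 66.2% held a CANNTG, 14.4% a CAGATG (read on both strands, as CAGATG or CATCTG), 13.0% a CAGCTG and 6.02% a CACGTG. The 60 member peaks held 674 CANNTG matches, or 5.03 per kb, and all peaks held 5.13 per kb. CAGATG occurred at 0.806 per kb in the member peaks and 0.726 per kb in all peaks, CAGCTG at 0.657 and 0.570 per kb, and CACGTG at 0.269 and 0.176 per kb. A match is a stretch of letters, not a bound site.

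Libraries held between 6283103 and 8112895 reads in the merged peaks, and reads were scaled here to the mean of these totals. At 48 h the replicates lay further apart than at the other time points, with a chi-square per degree of freedom of 5.54 against 1.79 at 0 h and 1.42 at 12 h. Changes at 12 h also followed the base composition of the peaks. Across 66783 peaks, which share the same libraries, the log2 fold change against 0 h had a Pearson r of -0.495 with GC content. The value was -0.209 at 48 h against 0 h and 0.306 at 48 h against 12 h. All 10 ES cell markers checked had peaks, with a summed level of 29853 to 30094 scaled reads at 0 h, 31887 to 32038 at 12 h and 20941 to 25584 at 48 h. Of 8 neuronal markers, 7 had a peak (Dcx had none) and their sum was 2286 to 2457 at 0 h, 2960.4 to 3122 at 12 h and 3359.5 to 3479 at 48 h. Peaks were found at 3 of 8 feeder fibroblast markers (none at Postn, Dcn, Thy1, Twist2 and Prrx1), with sums of 365 to 369 at 0 h, 385 to 414 at 12 h and 334 to 391 at 48 h. Of 6 endoderm and mesoderm markers, 2 had a peak (none at Gata6, Sox17, Foxa2 and T), with sums of 275 to 301, 227 to 251 and 235 to 251 at the 3 times. Single markers did not all follow their sums. At 12 h, 4 neuronal markers gained and Elavl3 lost (0.48-fold), and of the 3 feeder markers Col3a1 (3.08-fold) and Col1a2 (2.18-fold) gained and Col1a1 lost (0.735-fold). Of the ES cell markers at 12 h, Pou5f1 gained (1.23-fold) and Lin28a lost (0.744-fold). By 48 h, against 0 h, 4 ES cell markers lost, 4 neuronal markers gained and Col1a2 gained. At 48 h against 12 h, 8 ES cell markers lost and Lin28a gained (1.61-fold), while 3 neuronal markers gained and Col3a1 lost (0.409-fold). The part of these shifts, and of base composition, in the changes below was not tested. In bulk chromatin, fewer cells with the mark and less of the mark per cell cannot be told apart.

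At 12 h, H3K27ac had risen over 0 h in 9 and fallen in 2 of the 60 member peaks (edgeR quasi-likelihood test, Benjamini-Hochberg adjusted p under 0.05 over all peaks). Of all peaks 16.0% were called in this comparison, 9.93% as gained and 6.03% as lost. At 48 h against 0 h, 10 gained and 2 lost, where 14.0% of all peaks were called, 8.56% as gained and 5.45% as lost. Between 48 h and 12 h, 4 gained and 6 lost, where 19.1% of all peaks were called, 10.7% as gained and 8.43% as lost. Thus 11, 12 and 10 of the 60 peaks changed, shares of 18.3%, 20% and 16.7% that lie near the background. The libraries of the compared time points did not overlap at 43, 32 and 36 of the 60 peaks, where 65.8%, 52.6% and 61.5% of all peaks did not overlap. In all, 20 peaks changed in at least 1 comparison, of which 5 lay at Btg2, 4 at Ccnd3, 3 each at Gadd45g and Mycn, 2 at Ccnd2 and 1 each at Cdkn1b, Ccnd1 and Myc. None of the 4 peaks of Cdkn1a or the 3 peaks of Cdkn1c was called by edgeR or DESeq2. At an unadjusted edgeR p under 0.05, 1 Cdkn1a peak differed at 12 h against 0 h, and 1 peak of each gene at 48 h against 12 h (DESeq2: 1, and 0 of either gene). Of the 60 peaks, 56 held at least 10 counts in at least 2 libraries. The 35 peaks that were neither called nor the main promoter peak of a gene had log2 fold changes of -1.37 to 1.59 at 12 h, -0.78 to 1.23 at 48 h against 0 h and -1.39 to 1.18 at 48 h against 12 h. Leaving out 1 library moved the 3 counts of called peaks to 2 to 24, 5 to 17 and 2 to 19. They were lowest without 0 h R2 (2 and 5) and without either 12 h library (2 and 2) and highest without 48 h R2 (24, 17 and 19). Calls over all peaks also fell in the fits with the lowest counts and rose in the fit with the highest, so these swings are not particular to the member peaks. The median log2 fold change of the 60 peaks was 0.13, 0.03 and -0.08 in the 3 comparisons. That of all peaks was -0.08, -0.04 and -0.03.

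Reads summed over the peaks of each gene gave a locus sum. At 12 h against 0 h, 5 of the 10 locus sums gained (Ccnd2, Gadd45g, Btg2, Myc and Mycn) and Cdkn1b lost. Of 16128 gene loci 37.4% were called, 7.15% as gained and 30.2% as lost. With TMM factors the split at 12 h was 6 gained and 0 lost, by DESeq2 5 and 0, and with an offset for GC content 7 and 0. Of all loci these called 2904 (1153 gained), 3134 (1016 gained) and 3139 (1962 gained). At 48 h against 0 h, Gadd45g and Btg2 gained and none lost (also 0 by DESeq2, and 0 at an unadjusted edgeR p under 0.05). Of all loci 11.8% were called, 6.48% as gained and 5.36% as lost. At 48 h against 12 h, Cdkn1b, Ccnd1 and Btg2 gained while Myc and Mycn lost. Of all loci 45.9% were called, 38.2% as gained and 7.71% as lost. With the GC offset 1 gained and 5 lost in that comparison, where 5984 of all loci were called, 2985 of them as gained. Without 1 of the 6 libraries the counts of called loci were 1 to 8, 2 to 8 and 0 to 7. There was 1 at 12 h without 0 h R2, 12 h R1 or 12 h R2, 0 between 48 h and 12 h without 12 h R1 or R2, and 8 at 48 h against 0 h without 48 h R2. Calls over all loci fell and rose in these same fits. The median of the 10 locus sums was a log2 fold change of 0.27, 0.18 and -0.06, against -0.29, 0.03 and 0.32 over all loci.

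**Figure D1:**
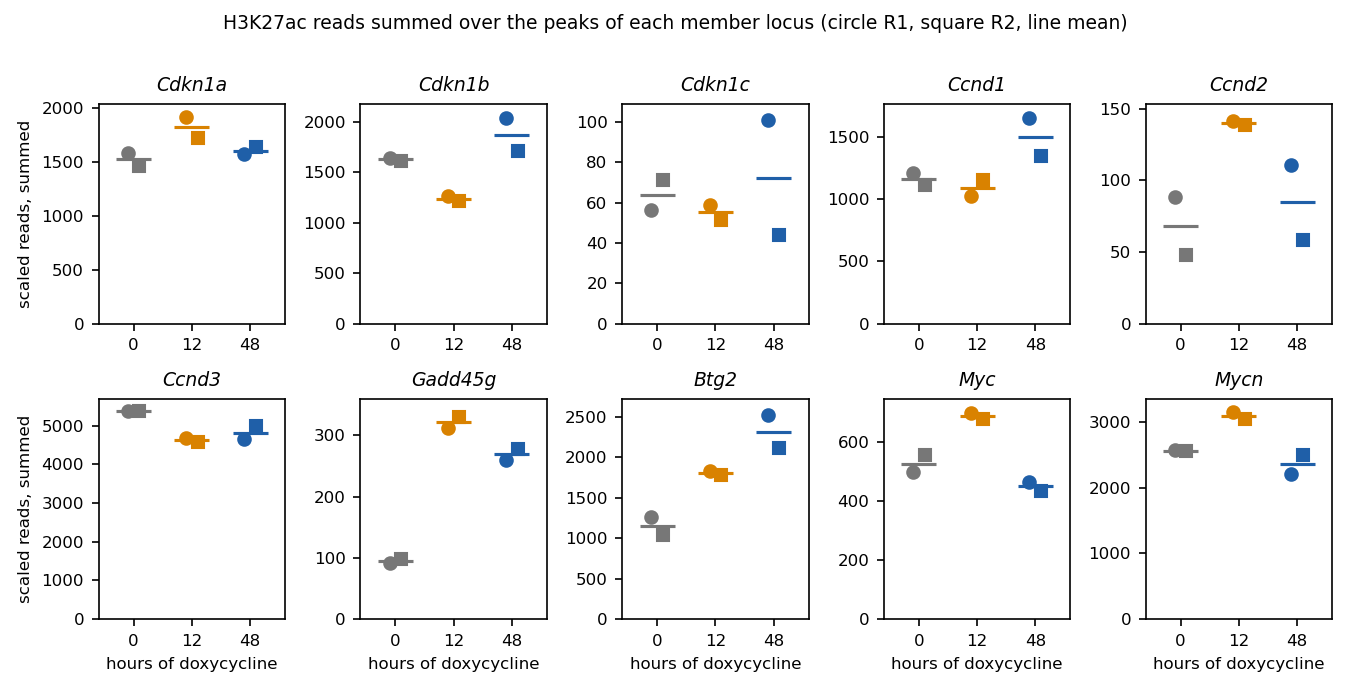
H3K27ac reads scaled to the mean library total (y axis, from 0) and summed over the peaks of each gene, by hours of doxycycline (x axis). Circles are R1, squares R2 and lines the mean of both; Gadd45g stood near 95 at 0 h and near 321 and 269 later, while Myc and Mycn were highest at 12 h and Cdkn1b lowest at 12 h.

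Gadd45g, a small stress-response protein of the Gadd45 family that restrains proliferation, showed the steepest rise of the 10 loci. The gene (ENSMUSG00000021453.2, chr13:51846678-51848468, plus strand) had 3 peaks. All of them gained H3K27ac at 12 h and at 48 h against 0 h. In the upstream peak (chr13:51845234-51846575), whose E-boxes are shown above, scaled reads were 22.6 and 31.8 at 0 h (R1 and R2), 101 and 121 at 12 h, then 71.1 and 95.4 at 48 h. Every induced library lay above both 0 h libraries, with 48 h under 12 h. Relative to 0 h the log2 fold change reached 2.03 ± 0.29 (SE) after 12 h (adjusted p = 3.3e-05) and 1.62 ± 0.30 after 48 h (adjusted p = 0.00050). In the peak over the gene body (chr13:51846685-51848707), values were 52.3 and 57.3 at 0 h, 161 and 160.1 at 12 h, then 159.9 and 149 at 48 h. This peak was thus 2.92-fold higher at 12 h and 2.81-fold higher at 48 h (adjusted p = 6.5e-05 and 9.0e-05). The downstream peak, 2.71 kb from the transcription start, held 16.4 and 9.55 scaled reads at 0 h, 50.4 and 48.8 at 12 h, then 28.9 and 33.5 at 48 h. Its log2 fold changes were 1.92 ± 0.36 and 1.26 ± 0.38 (adjusted p = 0.00071 and 0.026). The locus sum went from 95 ± 5.21 (SD, n = 2) at 0 h to 321 ± 12.9 at 12 h and 269 ± 12.7 at 48 h, changes of 3.38-fold and 2.83-fold (adjusted p = 0.00018 and 0.00028).

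Between 48 h and 12 h the Gadd45g sum had a log2 fold change of -0.26 (95% interval -0.58 to 0.07, adjusted p = 0.17), which became -0.65 with an adjusted p of 0.00063 when an offset for GC content was fitted. The calls against 0 h of the upstream and gene body peaks and of the locus sum remained when any 1 of the 6 libraries was left out. The downstream peak was no longer called at 12 h without 0 h R2 (adjusted p = 0.070), nor at 48 h without any 1 library of 0 h or 12 h (adjusted p from 0.051 to 0.33) or by DESeq2 (adjusted p = 0.099).

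Btg2, an antiproliferative protein of the BTG family known from neural precursors about to produce neurons, gained at both time points. The gene (ENSMUSG00000020423.6, chr1:134075170-134079120, minus strand) had 9 peaks, of which 2 gained at 12 h and 5 at 48 h against 0 h. None lost in these comparisons by edgeR or DESeq2, nor at an unadjusted p under 0.05 (0 of 9). Its broad promoter peak (chr1:134075360-134081173) held 472 and 426 scaled reads at 0 h, 534 and 522 at 12 h, then 835 and 722 at 48 h. The 3 pairs of libraries did not overlap, yet only the later values were called. On the log2 scale the peak differed from 0 h by 0.23 ± 0.16 at 12 h (adjusted p = 0.33), 0.79 ± 0.16 at 48 h (adjusted p = 0.0015) and 0.56 ± 0.16 between 12 h and 48 h (adjusted p = 0.017). The broad peak 16.2 kb downstream of the start (chr1:134059920-134065861) was called at 12 h already, with 668 and 519 scaled reads at 0 h, 1040.0 and 1071 at 12 h, then 1346 and 1163 at 48 h. It changed by 1.78-fold at 12 h and 2.11-fold at 48 h (adjusted p = 0.00089 and 3.9e-05). Its difference between 48 h and 12 h was 0.25 (95% interval -0.07 to 0.57) on the log2 scale. Divided by the promoter peak of the same library, this downstream peak stood at 1.42 and 1.22 at 0 h, 1.95 and 2.05 at 12 h, then 1.61 and 1.61 at 48 h, a ratio chosen after its values were seen.

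The upstream Btg2 peak, 7.71 kb before the start (chr1:134086327-134087329), held 42.1 and 41.4 scaled reads at 0 h, 110.4 and 90.1 at 12 h, then 149.9 and 97.2 at 48 h. Both later time points lay above 0 h, with folds of 2.39 (adjusted p = 0.0034) and 2.93 (adjusted p = 0.00036), and overlapped each other there. The peak 7.80 kb downstream held 39.0 and 26.5, then 61.1 and 43.2, then 109 and 67.9. It was called at 48 h (log2 fold change 1.41 ± 0.31, adjusted p = 0.0030) but not at 12 h (0.66 ± 0.33, adjusted p = 0.17). The smallest of the 5 changed peaks, 10.2 kb downstream, had 2 and 1 reads counted at 0 h, then 8 and 7 at 12 h, then 17 and 17 at 48 h. Its ratio of summed scaled reads to 0 h was 4.74 at 12 h (95% counting interval 1.34 to 25.6) and 10.5 at 48 h (3.31 to 53.6), and the fitted log2 fold change at 48 h was 3.31 ± 0.73 (adjusted p = 0.0030). Repeat-masked letters made up 92.7% of this peak in the RefSeq genome, against a median of 15.6% over the 60 peaks, so reads from other copies of the repeat could be counted there. Counting intervals cover counting error only, since the reads carry no molecular identifiers. Because peaks of all time points were merged, this small peak may be in the set only through later libraries. Its ratios and p-value are therefore not independent support for a gain.

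The Btg2 locus sum went from 1149 ± 150.5 at 0 h to 1804 ± 31.2 at 12 h and 2314 ± 285 at 48 h, with no overlap between time points. Its log2 fold changes were 0.65 ± 0.12 at 12 h (adjusted p = 0.0062), 1.01 ± 0.12 at 48 h (adjusted p = 0.00042) and 0.36 ± 0.12 between them (adjusted p = 0.029). Only the change at 48 h against 0 h held without each single library: without 0 h R2, 12 h R1 or 12 h R2 the adjusted p at 12 h was 0.12, 0.078 and 0.087. Without 12 h R1 or R2 that of 48 h against 12 h was 0.13 and 0.17. With the GC offset the difference between 48 h and 12 h was 0.07 (adjusted p = 0.53), and with a window of 50 kb it was 0.21 (0.093). With a window of 2 kb the change at 12 h was 0.23 and was not called (adjusted p = 0.15). Among the peaks, without 0 h R2 the calls were lost at 12 h for the peak 16.2 kb downstream (adjusted p = 0.12) and at 48 h for the promoter peak (0.10) and the peaks 10.2 kb and 7.80 kb downstream (0.080 and 0.14). The upstream peak lost its 12 h call without 0 h R1, 0 h R2 or 12 h R1 (0.057, 0.097 and 0.076), and the promoter peak its step from 12 h to 48 h without 12 h R1 or R2 (0.16 and 0.21).

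**Figure D2:**
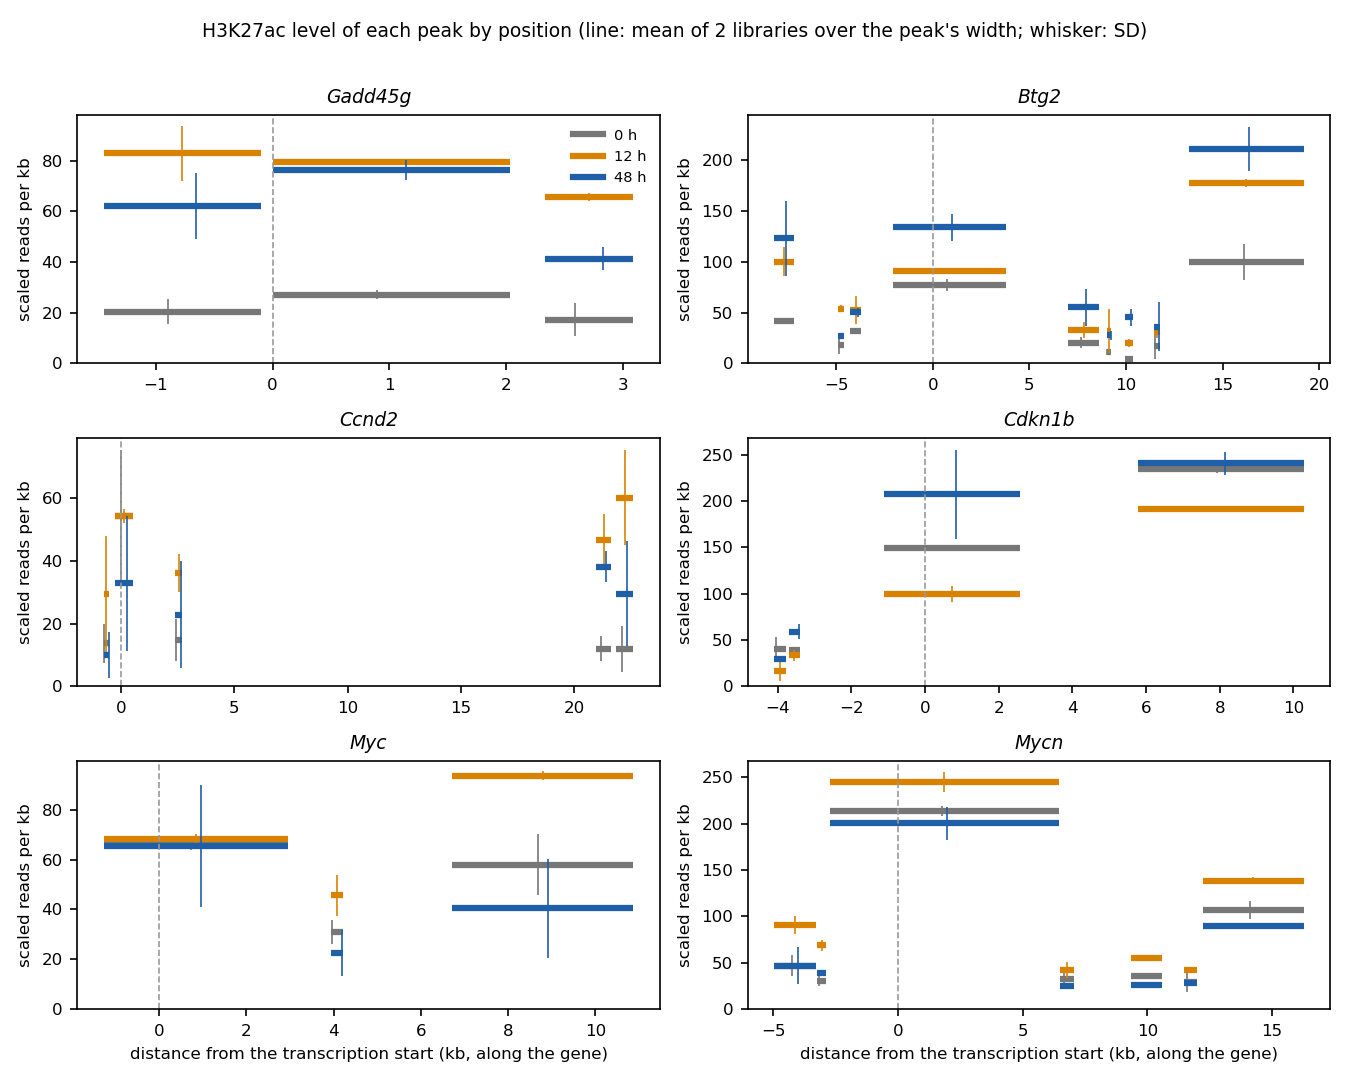
H3K27ac level of every peak of 6 loci (y axis, scaled reads per kb of peak, from 0) by distance from the transcription start along the gene (x axis, kb, dashed line at 0). Lines span each peak at the mean of 2 libraries for 0 h (grey), 12 h (orange) and 48 h (blue), and whiskers are the SD; at Gadd45g and Btg2 the induced levels lie above 0 h from the promoter to the flanks, while at Myc the promoter levels coincide and the peak 8.79 kb downstream differs. At the Ccnd2 promoter the 12 h line covers that of 0 h.

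Among the inhibitors, Cdkn1b, which encodes p27, fell at its promoter at 12 h and was higher at 48 h than at 12 h. The gene (ENSMUSG00000003031.14, chr6:134920401-134925513, plus strand) had 4 peaks, and the promoter peak (chr6:134919282-134922969) was the only one called. It held 554 and 547 scaled reads at 0 h, 389 and 345 at 12 h, then 889 and 638 at 48 h. The 3 pairs did not overlap, with 12 h lowest and 48 h highest. The log2 fold change was -0.59 ± 0.18 at 12 h against 0 h (adjusted p = 0.026), 0.47 ± 0.17 at 48 h against 0 h (adjusted p = 0.072) and 1.06 ± 0.18 at 48 h against 12 h (adjusted p = 0.00035). The last of these held without any 1 library, whereas the fall at 12 h was not called without any 1 library of 0 h or 12 h (adjusted p from 0.13 to 0.31), with TMM factors (0.058) or by DESeq2 (0.095). The peak 8.04 kb downstream of the start had means of 1056, 858 and 1081 at 0 h, 12 h and 48 h and was not called. Within each library the promoter peak stood at 0.518 and 0.524 of that downstream peak at 0 h, 0.454 and 0.401 at 12 h, then 0.792 and 0.613 at 48 h, ratios chosen after their values were seen.

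The Cdkn1b locus sum was 1631 ± 20.9, 1240.4 ± 30.5 and 1872 ± 232 at 0 h, 12 h and 48 h. At 12 h its log2 value fell by 0.40 (adjusted p = 0.018), and it was 0.59 ± 0.10 higher at 48 h than at 12 h (adjusted p = 0.0048), while at 48 h against 0 h the difference was 0.20 (95% interval -0.03 to 0.42). The fall at 12 h lies close to the median of all loci in that comparison, -0.29. With the GC offset it was -0.17 (adjusted p = 0.14), and it was not called with TMM factors (0.069), by DESeq2 (0.061) or without any 1 library of 0 h or 12 h (0.10 to 0.16), while the later step was not called without 12 h R1 or R2 (0.061 and 0.079).

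Cdkn1a, which encodes p21 (ENSMUSG00000023067.14, chr17:29090976-29100727, plus strand), and Cdkn1c, which encodes p57 (ENSMUSG00000037664.13, chr7:143458339-143461050, minus strand), had no called peak and no called locus sum. The Cdkn1a promoter peak (chr17:29089096-29096078) held 588 and 558 scaled reads at 0 h, 670.1 and 568 at 12 h, then 517 and 555 at 48 h. The 12 h libraries overlapped those of 0 h, and both 48 h libraries lay slightly below them, with log2 fold changes of 0.11 (95% interval -0.22 to 0.44) and -0.10 (-0.43 to 0.24). The Cdkn1a locus sum was 1521 ± 89.9, 1819 ± 137 and 1602 ± 43.7, with a log2 fold change of 0.26 ± 0.10 at 12 h (adjusted p = 0.056) that was called with TMM factors (0.32, adjusted p = 0.049) and with the GC offset (0.48, adjusted p = 0.00024). A second broad Cdkn1a peak, 10.0 kb before the start, had means of 902, 1166 and 1017 and was not called. Cdkn1c was weakly marked: its promoter peak held 31.8 and 29.7 scaled reads at 0 h, 17.2 and 19.3 at 12 h, then 54.4 and 18.1 at 48 h. Both 12 h values were under those of 0 h, and the 48 h libraries lay on either side of them. The intervals of its log2 fold changes were wide, -1.62 to 0.13 at 12 h and -0.61 to 0.99 at 48 h against 0 h. Its locus sum was 63.8 ± 10.4, 55.2 ± 5.27 and 72.4 ± 40.4. Without 48 h R2 the promoter value at 48 h against 12 h went from 0.94 (adjusted p = 0.11) to 1.56 (adjusted p = 0.00011).

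Of the D-type cyclins, Ccnd2 gained far from its promoter. The gene (ENSMUSG00000000184.12, chr6:127125162-127152193, minus strand) had 5 peaks, and the called ones overlapped exons towards the end of the gene, 21.3 and 22.2 kb downstream of the start. The peak at 22.2 kb (chr6:127129580-127130358) held 13.3 and 5.31 scaled reads at 0 h, 38.6 and 55.2 at 12 h, then 32.2 and 13.8 at 48 h. All induced libraries exceeded those of 0 h, and the 12 h libraries exceeded those of 48 h. The fitted log2 fold change came to 2.32 ± 0.45 at 12 h (adjusted p = 0.00097), 1.24 ± 0.49 at 48 h against 0 h (adjusted p = 0.098) and -1.08 ± 0.38 at 48 h against 12 h (adjusted p = 0.049). The peak at 21.3 kb (chr6:127130547-127131240) held 10.3 and 6.37, then 36.5 and 28.5, then 28.9 and 24.1, and was 3.83-fold and 3.12-fold higher at 12 h and 48 h than at 0 h (adjusted p = 0.0027 and 0.011). The promoter peak held 54.4 and 30.8 at 0 h, 44.0 and 41.4 at 12 h, then 37.7 and 13.8 at 48 h. All 12 h values lay between those of 0 h, with intervals of -0.74 to 0.73 and -1.57 to 0.02 for the log2 fold changes against 0 h. It overlaps the noncoding gene 9330179D12Rik as well, and the mark has no strand. Without 48 h R1 the promoter peak was called as lost at 48 h against 0 h (-1.63, adjusted p = 0.00079).

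The calls at Ccnd2 rested on few reads. Its called peaks, low at 0 h, may also be in the merged set only through later libraries. Without 0 h R2 the 12 h gains were 1.81 (adjusted p = 0.094) at 22.2 kb and 1.64 (0.11) at 21.3 kb, and the 48 h gain at 21.3 kb was 1.35 (0.20), which DESeq2 also did not call (0.055). The fall from 12 h to 48 h at 22.2 kb was called only when 48 h R1 was left out and in none of the other 5 fits without 1 library (adjusted p from 0.074 to 0.40), nor by DESeq2 (0.18), and without 48 h R2 it was -0.55. The locus sum was 68.0 ± 28.6, 140.2 ± 1.86 and 84.7 ± 37.2, 2.06-fold higher at 12 h (adjusted p = 0.034). Without 1 library of 0 h or 12 h this log2 fold change lay between 0.67 and 1.55 and was not called (adjusted p from 0.066 to 0.26), and with a window of 50 kb it was 0.14 (adjusted p = 0.45).

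Ccnd1, the cyclin D1 gene (ENSMUSG00000070348.5, chr7:144929931-144939925, minus strand), was called in 1 comparison. Its promoter peak (chr7:144937026-144943866) held 1169.9 and 1075 scaled reads at 0 h, 999 and 1121 at 12 h, then 1603 and 1303 at 48 h. The 48 h libraries lay above all others, while 0 h and 12 h overlapped. The log2 fold change was 0.45 ± 0.15 at 48 h against 12 h (adjusted p = 0.035) and 0.37 ± 0.15 against 0 h (adjusted p = 0.10). The later step was not called in the fits without 1 library of 0 h or 12 h (adjusted p from 0.083 to 0.33), by DESeq2 (0.063), with the replicate block (0.051) or with the GC offset (0.28, adjusted p = 0.089). The Ccnd1 locus sum was 1157 ± 66.9, 1089 ± 89.5 and 1495 ± 217 at the 3 times. The GC offset turned its direction at 12 h, from -0.09 (adjusted p = 0.57) to 0.34 (adjusted p = 0.0094), and took the step from 12 h to 48 h from 0.45 (adjusted p = 0.013) to 0.03 (adjusted p = 0.80). Without 12 h R1 or R2 that step was 0.37 and 0.54 (adjusted p = 0.13 and 0.082).

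Ccnd3, the cyclin D3 gene, changed in opposite directions along its length. The gene (ENSMUSG00000034165.16, chr17:47505051-47599691, plus strand) had 19 peaks over 94641 bp, with 1 peak lost at 12 h and 1 gained and 2 lost at 48 h against 0 h. A broad intronic peak 15.8 kb from the annotated start (chr17:47517274-47524417) held 961 and 936 scaled reads at 0 h, 947 and 979 at 12 h, then 1259 and 1281 at 48 h. The 48 h libraries stood apart from the other 4, a 1.34-fold gain against 0 h (adjusted p = 0.049). A second broad peak, 64.3 kb from the start (chr17:47565044-47573718), held 992 and 921 at 0 h, 867 and 780.1 at 12 h, then 486 and 625 at 48 h. The pairs stood in the order 0 h, 12 h, 48 h without overlap. The log2 fold change of this peak came to -0.22 ± 0.16 at 12 h (adjusted p = 0.36), -0.78 ± 0.16 at 48 h (adjusted p = 0.0016) and -0.57 ± 0.16 between 12 h and 48 h (adjusted p = 0.017). Within each library the former peak divided by the latter gave 0.968 and 1.02 at 0 h, 1.09 and 1.25 at 12 h, then 2.59 and 2.05 at 48 h, a pair chosen after the values were seen.

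Next to it, the small peak 69.6 kb from the start, whose E-boxes are printed above, held 29.8 and 47.8 scaled reads at 0 h, 22.5 and 21.2 at 12 h, then 7.77 and 22.4 at 48 h. Between 0 h and 48 h the log2 value of this peak fell by 1.29 (adjusted p = 0.032). The promoter peak with the most reads lay 91.9 kb from the annotated start, over an internal transcription start and part of Bysl (chr17:47592927-47600990). It held 785 and 766 at 0 h, 539 and 465 at 12 h, then 778 and 647 at 48 h, lowest at 12 h without overlap. The log2 fold change here came to -0.63 ± 0.16 at 12 h (adjusted p = 0.010) and 0.50 ± 0.16 at 48 h against 12 h (adjusted p = 0.031). The peak over the annotated start, which also covers the promoter of Taf8, had means of 713, 588 and 601 and was not called. The Ccnd3 locus sum, 5372 ± 6.33, 4634 ± 68.4 and 4816 ± 225, was not called in any comparison by edgeR or DESeq2 (at an unadjusted edgeR p under 0.05, 1 comparison, that of 12 h with 0 h), with log2 fold changes of -0.21, -0.16 and 0.06.

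Of these Ccnd3 calls, the gain at 15.8 kb was not called by DESeq2 (adjusted p = 0.051), with the replicate block (0.081) or without any 1 library of 0 h or 12 h (0.14 to 0.34). The loss at 64.3 kb against 0 h was not called without 0 h R1 (0.053), nor that against 12 h without 12 h R1 or R2 (0.22 and 0.13). The loss at 69.6 kb was called without 48 h R2 only among the 6 libraries (log2 fold change -2.30), and not without the others (-0.79 to -1.60, adjusted p from 0.051 to 0.41) or by DESeq2 (0.18). The promoter peak was not called without any 1 library of 0 h or 12 h, at 12 h against 0 h (0.078 to 0.25) or at 48 h against 12 h (0.074 to 0.36), while both remained called with the GC offset.

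Myc had a called change downstream, whereas its promoter peak was not called with all 6 libraries. The 2 peaks were not tested against each other. The gene (ENSMUSG00000022346.15, chr15:61985391-61990374, plus strand) had 3 peaks. The promoter peak (chr15:61984124-61988346) held 285 and 272 scaled reads at 0 h, 294 and 281 at 12 h, then 349.7 and 204 at 48 h. The 48 h replicates fell on either side of all the others, and the log2 fold changes against 0 h were 0.05 (95% interval -0.39 to 0.48) at 12 h and -0.02 (-0.45 to 0.42) at 48 h. Without 48 h R1 the latter was -0.45 (adjusted p = 0.035). The peak 8.79 kb downstream (chr15:61992111-61996260) held 204 and 276 at 0 h, 394 and 384 at 12 h, then 109 and 226 at 48 h. The 12 h libraries lay above all others, with a log2 fold change of 0.69 ± 0.24 at 12 h against 0 h (adjusted p = 0.045) and -1.20 ± 0.24 at 48 h against 12 h (adjusted p = 0.0017). Divided by the promoter peak of the same library, the downstream peak gave 0.716 and 1.02 at 0 h, 1.34 and 1.36 at 12 h, then 0.311 and 1.11 at 48 h, ratios chosen after the values were seen.

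The fall of this Myc peak from 12 h to 48 h was called without any 1 library, with log2 fold changes from -1.83 (without 48 h R2) to -0.78 (without 48 h R1). Its rise at 12 h was not called without any 1 library of 0 h or 12 h (adjusted p from 0.15 to 0.35), by DESeq2 (0.067) or with the GC offset (0.38, adjusted p = 0.11). The locus sum was 527 ± 39.9, 688 ± 13.5 and 450.3 ± 22.7 at 0 h, 12 h and 48 h, with 12 h above and 48 h below the other libraries. It gained by 0.39 ± 0.12 at 12 h (adjusted p = 0.027) and lost between 12 h and 48 h (-0.61 ± 0.12, adjusted p = 0.0055), while 48 h against 0 h gave -0.23 (95% interval -0.49 to 0.03). The gain was not called without any 1 library of 0 h or 12 h (0.13 to 0.18), nor the later loss without 12 h R1 or R2 (0.065 and 0.078).

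Mycn, whose promoter peak had the highest level per kb of the 10 genes at 0 h and 12 h, followed a course like that of Myc. The gene (ENSMUSG00000037169.15, chr12:12936093-12941914, minus strand) had 7 peaks, of which 1 gained at 12 h and 3 lost between 12 h and 48 h. The broad promoter peak (chr12:12935461-12944644) held 1926 and 2001 scaled reads at 0 h, 2318 and 2176 at 12 h, then 1724 and 1959 at 48 h. The 12 h libraries were highest, but no comparison was called, with log2 fold changes of 0.19 ± 0.13, -0.09 ± 0.13 and -0.29 ± 0.13. The upstream peak, 4.14 kb before the start (chr12:12945221-12946882), held 91.3 and 64.7 at 0 h, 139 and 163 at 12 h, then 54.4 and 101 at 48 h. This was a 1.94-fold gain at 12 h (adjusted p = 0.018) and a loss of 0.94 on the log2 scale by 48 h (-0.94 ± 0.27, adjusted p = 0.017). Downstream, the peak at 14.3 kb held 461 and 404, then 549 and 572, then 359.7 and 366, and the peak at 9.98 kb held 43.1 and 43.5, then 69.7 and 66.2, then 31.1 and 33.5. Both were highest at 12 h and lowest at 48 h without overlap, and fell from 12 h to 48 h with log2 fold changes of -0.63 ± 0.17 and -1.06 ± 0.28 (adjusted p = 0.011 for each).

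The Mycn locus sum was 2562 ± 7.59, 3098 ± 66.1 and 2358 ± 207. It was 1.21-fold higher at 12 h than at 0 h (adjusted p = 0.041) and lower at 48 h than at 12 h (log2 fold change -0.39 ± 0.09, adjusted p = 0.0095). The gain at 12 h was not called without any 1 library of 0 h or 12 h (adjusted p from 0.17 to 0.23) or with the replicate block (0.052). With a window of 2 kb it was 0.20 on the log2 scale (adjusted p = 0.15). The later loss was not called without 12 h R1 or R2 (0.096 and 0.089). Among the peaks, the upstream gain at 12 h had adjusted p of 0.061 to 0.28 without 1 library of 0 h or 12 h. The 3 losses by 48 h had 0.083 to 0.20 without 12 h R1 or R2. With the GC offset the upstream gain at 12 h was 0.59.

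**Figure D3:**
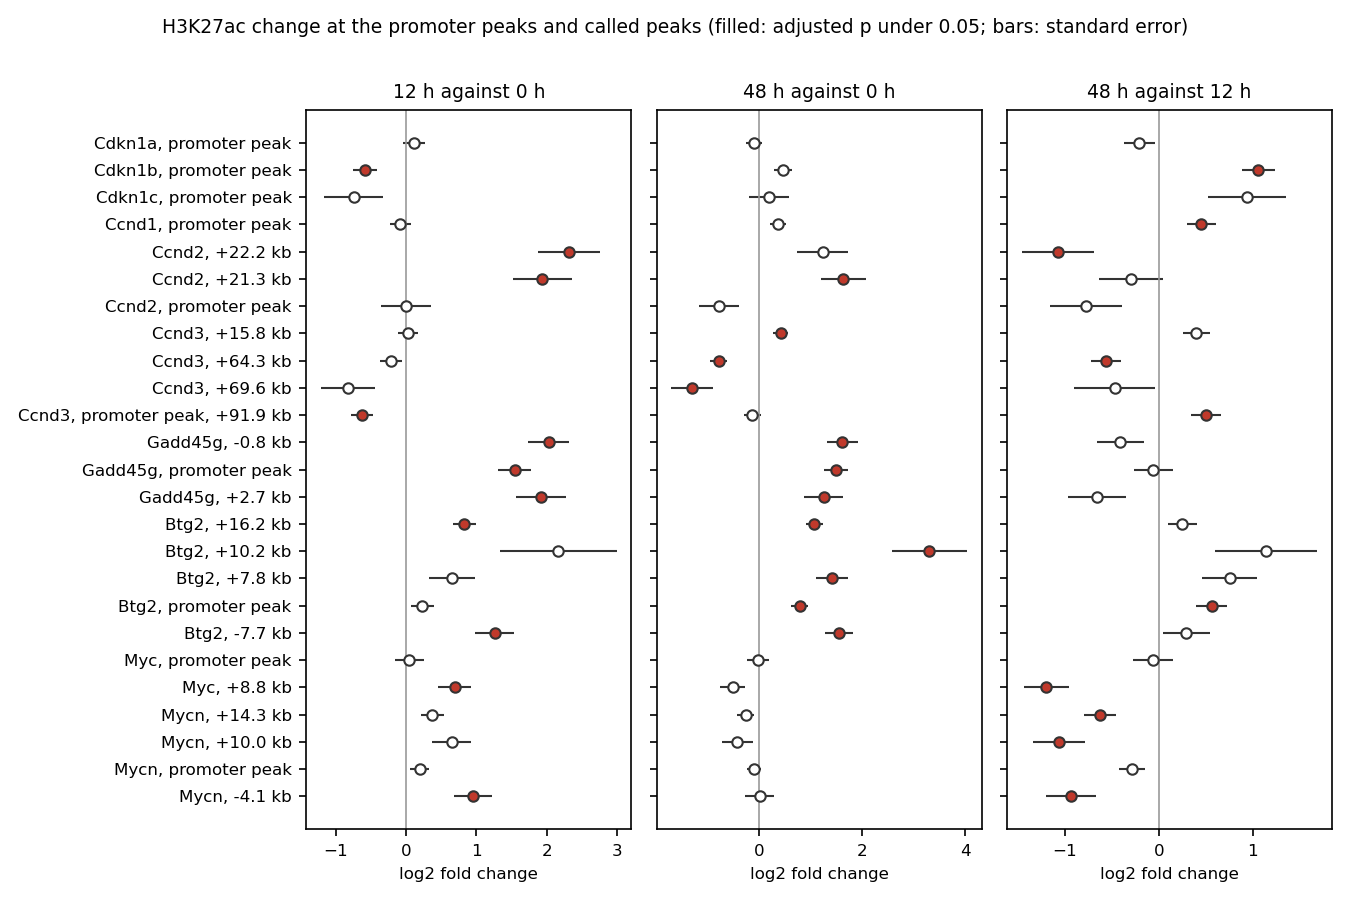
Log2 fold change (x axis) with its standard error for the promoter peak of each gene and every changed peak (rows, with the distance of the peak centre from the transcription start), in the 3 comparisons. Filled points have an adjusted p under 0.05; all 3 Gadd45g peaks and all 5 Btg2 peaks drawn are filled at 48 h against 0 h, and the Myc peak at +8.8 kb and 3 Mycn peaks are filled below 0 at 48 h against 12 h.

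Levels of different genes were compared per kb of the promoter peak with the most reads. For Ccnd3 this was the peak over the internal start, so its place holds for that peak only. The peak over the annotated Ccnd3 start was not ranked. For Gadd45g it was the peak over the gene body, which does not cover the start. The ranked Cdkn1c peak also lies within the gene and does not cover the start. At 0 h the order was Mycn (214 ± 5.73 scaled reads per kb), Ccnd1 (164 ± 9.79), Cdkn1b (149 ± 1.45), Ccnd3 (96.2 ± 1.64), Cdkn1a (82.1 ± 3.01), Btg2 (77.2 ± 5.65), Myc (65.9 ± 2.27), Ccnd2 (54.2 ± 21.3), Cdkn1c (37.5 ± 1.81) and Gadd45g (27.1 ± 1.74). The libraries of neighbours in this order overlapped between Cdkn1a and Btg2 and between Myc and Ccnd2, and were apart elsewhere. Among 16421 promoter peaks of all genes, Mycn stood at percentile 95.5 and Gadd45g at 6.53. At 12 h Gadd45g stood above Myc, Ccnd3 (at its internal start), Ccnd2 and Cdkn1c, at 79.3 ± 0.269 and percentile 61.0. At 48 h Ccnd1 (212 ± 31.1), Cdkn1b (207 ± 48.2) and Mycn (201 ± 18.1) led with overlapping libraries, and Btg2 (134 ± 13.7) came next.

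Over the 6 libraries, the locus sums most alike were those of Myc and Mycn, with a Pearson r of 0.896 between their log2 values (8 added to each scaled sum). The next pairs were Btg2 with Gadd45g (0.839) and Ccnd1 with Cdkn1b (0.830), whereas Mycn and Cdkn1b gave -0.991. These are descriptions over 6 libraries that share their time points, of which there are 3.

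A further 49 genes of the cell cycle (other kinase inhibitors, cyclins, kinases, retinoblastoma and E2f genes, Btg and Tob genes and Myc partners) were taken as background, and all had peaks. At 12 h, 1 gained and 16 lost, where 7.15% of all loci gained and 30.2% lost. At 48 h against 0 h, 2 gained and 4 lost (6.48% and 5.36% of all loci). At 48 h against 12 h, 16 gained and 3 lost (38.2% and 7.71% of all loci). The called shares of these genes, 34.7%, 12.2% and 38.8%, lay near those of all loci, 37.4%, 11.8% and 45.9%. Their medians, -0.33, -0.0013 and 0.29 on the log2 scale, lay near those of all loci given above. Rb1, which encodes the retinoblastoma protein, gained at 12 h (log2 fold change 0.62 ± 0.12) and at 48 h (0.75 ± 0.12), and Mycl, another Myc family gene, gained at 48 h (1.21 ± 0.15). Btg3, a relative of Btg2, lost at 12 h (-0.76 ± 0.16) and at 48 h (-0.58 ± 0.15), and Gadd45a, a relative of Gadd45g, lost at 48 h against 0 h (-0.74 ± 0.10) and against 12 h (-0.68 ± 0.10). E2f8 (-0.68 ± 0.19) and E2f3 (-0.60 ± 0.18), transcription factors of the cell cycle, lost at 12 h, and Ccne1, the cyclin E1 gene, lost at 48 h (-0.63 ± 0.12). Between 12 h and 48 h, where the median of all loci was 0.32, the largest gains besides Mycl (1.03 ± 0.15) were at Tob2 (0.85 ± 0.15) and the kinase inhibitor gene Cdkn2b (0.82 ± 0.23). Against 0 h, Tob2 stood at -0.57 at 12 h (adjusted p = 0.017) and 0.28 at 48 h (0.26). Cdkn2b stood at -0.40 (0.18) and 0.42 (0.28). The other losses between 12 h and 48 h were at Max, the partner of Myc (-0.35 ± 0.10), and E2f2 (-0.27 ± 0.10).

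Many of these calls did not hold under other settings, all of which were added for these genes after the data were seen. Without any 1 library of 0 h or 12 h, the losses at 12 h of Btg3, E2f8 and E2f3 were not called, with adjusted p from 0.061 to 0.13, 0.071 to 0.20 and 0.068 to 0.23. The GC offset brought them to -0.31 (adjusted p = 0.12), -0.20 (0.27) and -0.10 (0.51). E2f8 and E2f3 were also not called with TMM factors (0.057 and 0.061). The Rb1 gain at 12 h was 0.18 with the GC offset (adjusted p = 0.16) and was not called without 0 h R2, 12 h R1 or 12 h R2 (0.12, 0.079 and 0.10). Without 0 h R2 the changes at 48 h against 0 h were not called at Rb1 (0.089), Ccne1 (0.19) or Btg3 (0.33). Btg3 also lost its 48 h call without 0 h R1 (0.14), without either 12 h library or in the 4-library fit (0.099 in each), with TMM factors (0.11) and by DESeq2 (0.15). Between 12 h and 48 h, the changes of Mycl, Tob2, Cdkn2b and Max were not called without 12 h R1 or R2 (adjusted p from 0.0505 to 0.17), nor was that of Gadd45a without 12 h R2 (0.068). E2f2 kept that call in only 2 of 6 fits without 1 library, and lost it with TMM factors, DESeq2, the replicate block and the 4-library fit (0.060 to 0.155). Under the GC offset the log2 fold changes between those times were 0.72 at Mycl, 0.47 at Tob2, 0.46 at Cdkn2b and -0.61 at E2f2, all called.

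Leaving out 1 library moved the 3 counts of called genes from 17, 6 and 19 to 0 to 26, 2 to 19 and 0 to 29. They were lowest without 0 h R2 (0 and 2) and 12 h R2 (0), and highest without 48 h R2 (26, 19 and 29). Calls over all loci also fell in the fits with the lowest counts and rose in the fit with the highest. With the GC offset 6 gained and 2 lost at 12 h. At 48 h, 6 gained and 11 lost against 0 h, and 8 and 11 against 12 h. Of all loci the offset called 3139 (1962 gained), 4083 (2069 gained) and 5984 (2985 gained).

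**Figure D4:**
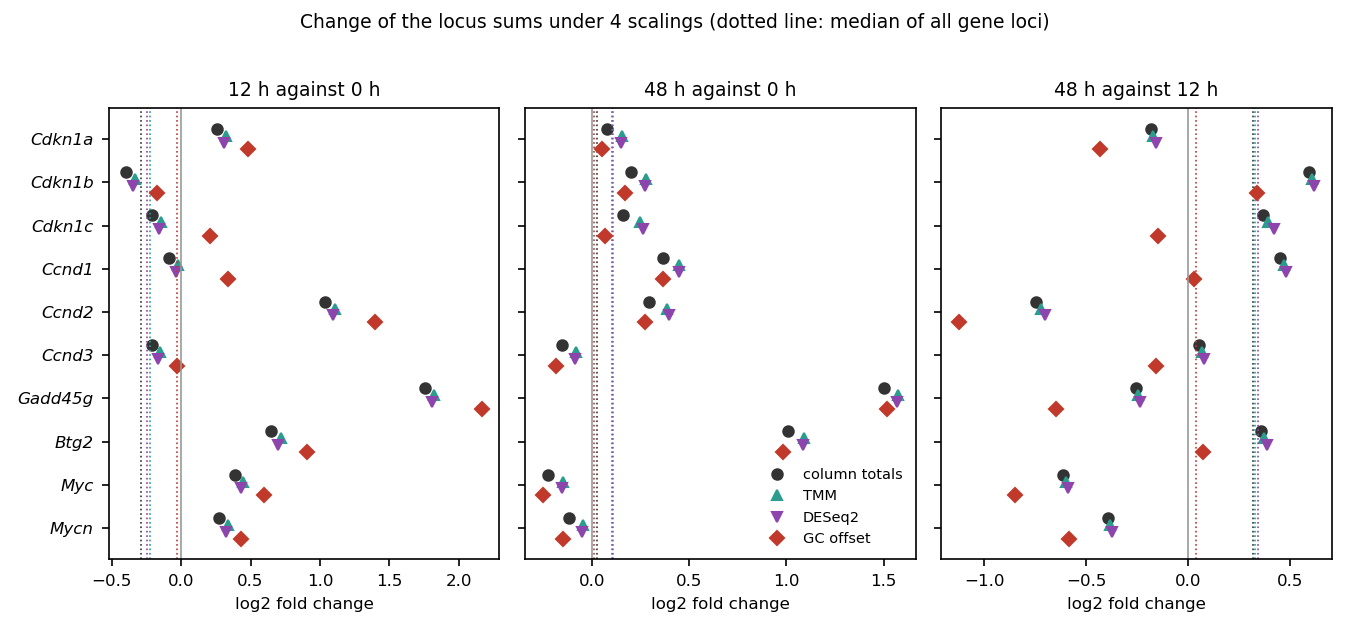
Log2 fold change of the 10 locus sums (x axis) under scaling by column totals, TMM factors, DESeq2 size factors and an offset for GC content, in the 3 comparisons; dotted lines are the median of all gene loci under each. Gadd45g, Btg2, Ccnd2 and Cdkn1a lie above 0 at both times against 0 h under all 4, while Ccnd1 and Cdkn1c change side at 12 h with the GC offset.

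Scaling moved the reference for these changes. The median of all loci at 12 h against 0 h was -0.29 with column totals, -0.23 with TMM factors, -0.24 by DESeq2 and -0.03 with the GC offset, and at 48 h against 12 h it was 0.32, 0.33, 0.34 and 0.04. Relative to the median of all loci with column totals, the 12 h log2 fold change was 2.05 at Gadd45g, 1.33 at Ccnd2, 0.94 at Btg2, 0.68 at Myc, 0.57 at Mycn and -0.10 at Cdkn1b. At the loci not called at 12 h it was 0.55 at Cdkn1a, 0.21 at Ccnd1, 0.08 at Cdkn1c and 0.08 at Ccnd3. For 48 h against 12 h it was -1.06 at Ccnd2, -0.93 at Myc, -0.71 at Mycn, 0.28 at Cdkn1b, 0.14 at Ccnd1 and 0.04 at Btg2. Gadd45g, Cdkn1a, Ccnd3 and Cdkn1c, like Ccnd2 not called there, stood at -0.57, -0.50, -0.26 and 0.05. Under all 4 scalings Gadd45g, Btg2, Ccnd2, Myc, Mycn and Cdkn1a were above 0 at 12 h and Cdkn1b and Ccnd3 below 0. The 3 inhibitors, Ccnd1, Ccnd2, Gadd45g and Btg2 were above 0 under all 4 at 48 h against 0 h, with Ccnd3, Myc and Mycn below. From 12 h to 48 h, Cdkn1b, Ccnd1 and Btg2 were above 0, and Cdkn1a, Ccnd2, Gadd45g, Myc and Mycn below. These are signs of values and not calls.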

How the data were processed

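H3K27ac ChIP-seq reads of 6 libraries, 2 at each of 3 time points, were counted in a common set of peaks. Bowtie2 alignment to mm10 was done by the authors, who used SAMtools 0.1.19 on the alignments, called peaks with MACS2 against an Input library, merged the peaks of all time points and deposited raw read counts per merged peak, made with QuasR. The Input library was not used here. Libraries held 6283103 to 8112895 reads in peaks. Reads are shown scaled to the mean of these column totals.

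Members, gene lists and tests were chosen with earlier results of these data known. Peaks were assigned to genes within 10 kb of the gene body (GENCODE M21). All 66841 peaks, and the sums over 16128 protein-coding loci, were fitted across the 6 libraries with the quasi-likelihood test of edgeR 4.0.16 (R 4.3.3), with column totals as library sizes and Benjamini-Hochberg adjustment over all features. Calls have an adjusted p under 0.05. Text names the promoter peak of each gene with the most reads and up to 5 further called peaks per gene, and of the other cell cycle genes the 3 with the largest called change in each direction, other peaks and gene pairs named being chosen after their values were seen. Alternatives were TMM factors, DESeq2 1.42.0, a minimum of 10 counts in 2 libraries, a replicate block, fits of the 4 libraries compared, a lowess offset for GC content (span 0.3), windows of 2 kb and 50 kb, a 2-fold minimum and leaving out each library. Where this left 1 library at a time point, it was taken to vary like the others. Sequences were read from RefSeq (GRCm38.p6) with pysam 0.24.0 under Python 3.11.15. Not every sequence read is reported here. Counts were simulated for 48 h against 0 h with 200 of 66841 peaks, or 200 of 16128 loci, changed. There edgeR recovered 115 of the 200 peaks with 7 false calls and 189 of the 200 loci with 9 false calls. DESeq2 recovered 83 peaks with 2 false calls. Of 89 peaks simulated with a log2 fold change of 1, edgeR recovered 26. Changed features were drawn only from those above a minimum mean count, with log2 changes of at least 1 in size. Recovery of weaker peaks and of smaller changes was therefore not measured. All simulated libraries had the same spread, whereas the real 48 h replicates lay further apart, so these numbers may not hold for the real data.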

Additional observations from a re-analysis of the deposited data

Results flagged for a closer look

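These results stand out because the change from 0 h at 12 h differed from that at 48 h when the difference was tested directly, as 48 h against 12 h in the edgeR fit. Among locus sums, the log2 difference was 0.59 at Cdkn1b, 0.45 at Ccnd1, 0.36 at Btg2, -0.61 at Myc and -0.39 at Mycn. Among promoter peaks it was 1.06 at Cdkn1b (from 134919282), 0.45 at Ccnd1 (from 144937026), 0.50 at the internal start of Ccnd3 (from 47592927) and 0.56 at Btg2 (from 134075360). Among the other peaks it was -1.08 at Ccnd2 22.2 kb downstream (from 127129580), -0.57 at Ccnd3 64.3 kb from the start (from 47565044), -1.20 at Myc 8.79 kb downstream (from 61992111), and at Mycn -0.63 (from 12925635), -1.06 (from 12931326) and -0.94 (from 12945221). Of these, the Cdkn1b promoter peak and the Myc downstream peak were called without any 1 library. Against the median of all loci, 0.32 in this comparison, the Btg2 locus sum differed by 0.04.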

How the results depend on the processing

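Beside the counts given with 1 library left out, the counts of called member peaks, 11 at 12 h against 0 h, 12 at 48 h against 0 h and 10 at 48 h against 12 h, moved as follows. At 12 h, 22 peaks were called when only the 4 compared libraries were fitted, where 21403 of all 66841 peaks were called (10666 with 6 libraries). The 50 kb window held more member peaks, 127, of which 23 were called at 12 h. With a 2-fold minimum 6 were called. At 48 h against 0 h, 7 were called by DESeq2 (4622 of all peaks, and 9365 by edgeR) and 20 of 127 with the 50 kb window. At 48 h against 12 h, 6 were called with 4 libraries and 17 with the GC offset. Of all peaks these fits called 8368 and 16500, and the main fit 12796. In the same comparison 23 of 127 were called with the 50 kb window and 4 with the 2-fold minimum. Called locus sums numbered 2 at 12 h and 0 at 48 h against 12 h with the 2-fold minimum. Of the other cell cycle genes, 7 were called at 12 h with TMM factors, 11 by DESeq2 and 8 with the GC offset (17 without). At 48 h against 0 h, 17 were called with that offset (6 without). Of all 16128 loci, 2904, 3134 and 3139 were called at 12 h in these fits (6026 in the main fit). At 48 h against 0 h, 4083 were called with the offset (1910 without). The GC offset turned the Ccnd1 locus sum at 12 h from -0.09 to 0.34, and the cause was not tested. With 1 library left out, called peaks ranged from 2 to 24, 5 to 17 and 2 to 19, called loci from 1 to 8, 2 to 8 and 0 to 7, and other cell cycle genes from 0 to 26, 2 to 19 and 0 to 29. Calls over all peaks and loci fell and rose in these fits too. R1 and R2 did not pair across time points (correlations of deviations -0.0362, -0.0496 and 0.078), and the replicate block gave 11, 11 and 10 called peaks. Of the called peaks, 2 of 11, 4 of 12 and 2 of 10 were called without every single library, and 1 of 6, 2 of 2 and 0 of 5 loci. With 2 libraries a time point and 48 h libraries that differ most, changes of weakly marked peaks under a few fold may pass undetected.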
